A study of Mus musculus with 6 samples.

Results

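Genes that write, erase, read or package chromatin were examined in myotubes after knockdown of the lncRNA H19. RNA-seq had been carried out on myotubes derived from C3H mouse myoblasts, a muscle cell line whose cells fuse into multinucleated fibres when serum is lowered. Each group comprised 3 libraries from cells given either a control siRNA (siCon) or an siRNA against H19 (siH19) at 40 h of differentiation, and RNA was prepared after a further 48 h. The 2 groups shared the cell line, the day 4 differentiation stage and the transfection itself, and differed in the siRNA. Only 1 siRNA against H19 is named, so that effects of losing H19 and of this siRNA sequence cannot be told apart.

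The members were chosen by gene symbol alone. A feature of the authors' deposited table, which is a gene-level locus of their transcript assembly, was taken when its symbol belonged to the DNA methyltransferase, TET, MBD, lysine or arginine methyltransferase, demethylase, acetyltransferase, deacetylase, SWI/SNF, ARID, CHD, bromodomain, CBX or PHF families. This gave 28 features among 2549 with a symbol and 3019 in all. The deposited table holds only features that the authors called different between the groups, and for each it gives 1 pooled log2 FPKM per group (FPKM counts sequenced fragments relative to transcript length and to the size of the library). Levels of different genes are therefore compared per length. Without values for single libraries, neither replicate spread nor sequencing depth is known, no test was run here, and the differences below carry no error. In bulk RNA of this kind, fewer cells of a type and less RNA per cell cannot be told apart. A difference is siH19 minus siCon in log2 FPKM, so that 1 unit is a doubling, and rounding of the deposited values can shift it by 0.01.

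Methyl groups are placed on cytosines of CpG dinucleotides by the DNA methyltransferases, oxidized towards removal by the TET dioxygenases, and recognized by proteins with a methyl-CpG-binding domain (MBD). Histone lysine methyltransferases, many of them with a catalytic SET domain, draw on the same methyl donor, S-adenosylmethionine, and are opposed by lysine demethylases. Remodellers such as SWI/SNF (BAF) and NuRD move nucleosomes, while bromodomain and PHD finger proteins read acetylated or methylated histone tails. In muscle precursors these activities are known to accompany the exit from the cell cycle and the opening of muscle genes.

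The target of the siRNA was looked at first. The log2 FPKM of H19 was 11.20 with siCon and 7.50 with siH19, a difference of -3.70, which left 7.69% of the control level.

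Of the 28 members, 17 were higher and 11 lower in siH19. That is 60.7% higher, beside 60.1% of all 2549 listed features with a symbol, and 39.3% lower, beside 39.9%. At a change of at least 1.5-fold, 8 members (28.6%) were higher, against 30.8% of the features with a symbol, and 2 members (7.14%) were lower, against 16.3%. The shares of higher members were thus near those of the whole list, and the lower share at 1.5-fold rests on 2 genes. The median difference of the members was 0.37, and that of all listed features with a symbol 0.41. When every difference is centred on that 0.41, the split of the members becomes 13 higher and 15 lower, in place of 17 and 11, and at 1.5-fold 2 higher and 11 lower, in place of 8 and 2. All listed features move alike: 9.73% are then higher and 39.9% lower by at least 1.5-fold, beside 7.14% and 39.3% of the members. Every lower feature passes 1.5-fold by construction, since none lay above -0.31, and the smaller increases, such as 0.35 for Arid1a and 0.37 for Chd3, Kdm1a and Mll1, come to lie below 0. The members' differences ran from -0.79 for Suv420h2 to 1.10 for Setd1b. No listed feature with a symbol had an absolute difference under 0.31, so the members that barely pass, such as Hdac5 at -0.32, sit at the edge of what the table contains.

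**Figure D1:**
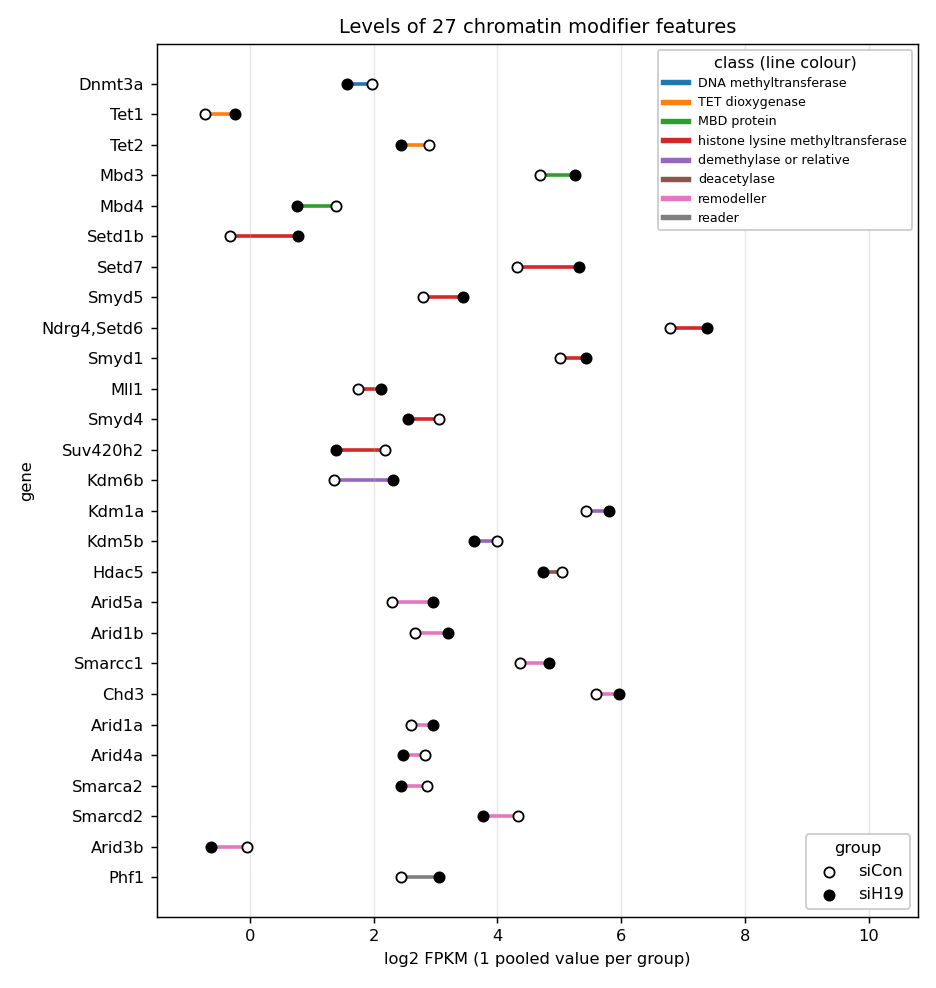
Pooled log2 FPKM of 27 members (x axis) in siCon (open circles) and siH19 (filled circles), 1 row per feature, with line colour giving the class of the gene. Levels run from -0.73 for Tet1 to 6.79 for the joint Ndrg4 and Setd6 feature in siCon, and the filled circle lies to the right of the open one in 16 rows and to the left in 11.

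**Figure D2:**
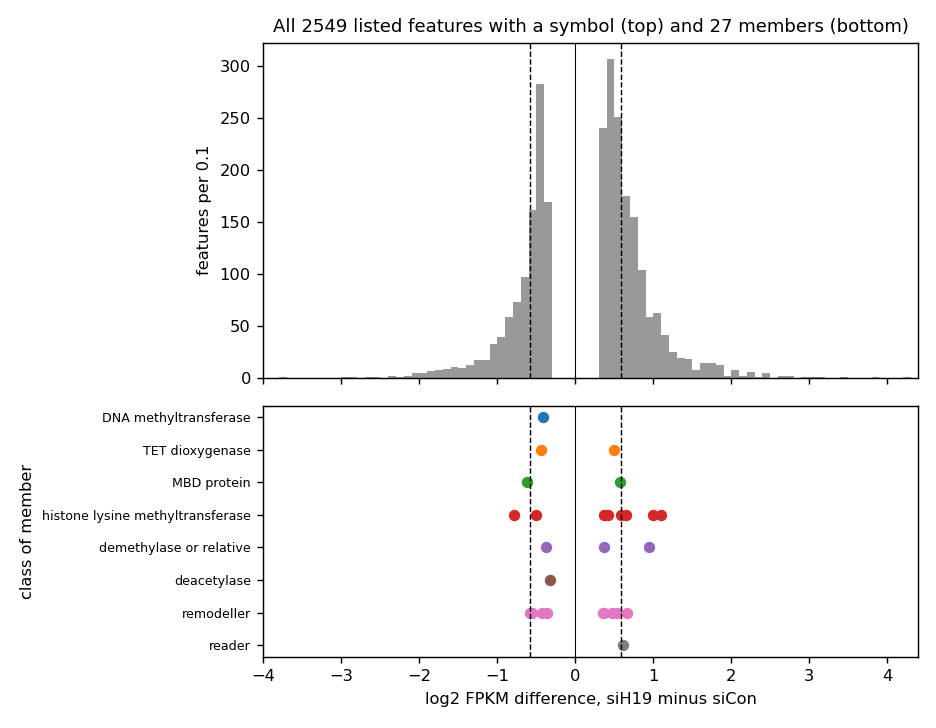
Log2 FPKM difference (siH19 minus siCon, x axis) of all 2549 listed features with a symbol, as the number of features per 0.1 (top), and of 27 members by class, 1 point each (bottom). Dashed lines mark a 1.5-fold change, and the empty band around 0 shows that only features with an absolute difference of at least 0.31 are listed.

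GENCODE annotates 168 protein-coding mouse genes under these family names, so 140 have no value here. The 28 listed are 16.7% of them, beside 11.1% of 21924 protein-coding symbols, a share that includes genes not expressed in muscle and misses older spellings. The genes not listed include all 8 arginine methyltransferases of the PRMT family and all 8 lysine acetyltransferases of the KAT family. They also include 17 of 18 histone deacetylases and sirtuins. These counts are too small to be set apart from the 11.1% of protein-coding symbols that are listed. A gene without a listed value may have been unchanged, too low or too variable, and these cannot be told apart.

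Sequence around the start of transcription is shown for 4 members, because the machinery of DNA methylation is itself carried by genes that differ widely in CpG content. The windows run from 250 bases before to 50 after an annotated RefSeq start in GRCm38.p6, the assembly also called mm10, and every CpG is in capitals. The first 2 belong to the distal and the internal start of Dnmt3a, which yield a long and a short protein and whose transcripts are merged in the gene-level FPKM. Tet1 and Tet2 are the pair of listed dioxygenases, and Smyd1, a muscle gene, has the fewest CpGs among the members.
Dnmt3a distal start, chr12:3806730-3807029, plus strand: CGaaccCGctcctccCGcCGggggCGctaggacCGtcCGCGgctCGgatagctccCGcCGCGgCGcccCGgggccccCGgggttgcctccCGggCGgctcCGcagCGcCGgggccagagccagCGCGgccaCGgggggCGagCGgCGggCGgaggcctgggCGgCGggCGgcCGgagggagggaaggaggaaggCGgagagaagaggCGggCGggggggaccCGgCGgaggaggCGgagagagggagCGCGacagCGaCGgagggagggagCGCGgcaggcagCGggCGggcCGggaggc
Dnmt3a internal start, chr12:3891494-3891793, plus strand: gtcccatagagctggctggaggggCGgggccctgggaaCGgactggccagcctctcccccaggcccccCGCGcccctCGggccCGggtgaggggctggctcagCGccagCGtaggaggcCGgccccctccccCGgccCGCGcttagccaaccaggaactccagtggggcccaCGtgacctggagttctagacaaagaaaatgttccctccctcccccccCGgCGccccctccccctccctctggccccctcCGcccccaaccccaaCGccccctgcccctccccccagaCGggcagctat
Tet1, chr10:62887275-62887574, minus strand: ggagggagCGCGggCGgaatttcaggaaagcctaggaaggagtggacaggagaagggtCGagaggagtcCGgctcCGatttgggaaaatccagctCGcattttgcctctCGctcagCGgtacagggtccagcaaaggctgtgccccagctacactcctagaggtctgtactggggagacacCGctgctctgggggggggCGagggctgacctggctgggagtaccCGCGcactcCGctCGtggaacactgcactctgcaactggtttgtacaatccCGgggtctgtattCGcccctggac
Tet2, chr3:133544341-133544640, minus strand: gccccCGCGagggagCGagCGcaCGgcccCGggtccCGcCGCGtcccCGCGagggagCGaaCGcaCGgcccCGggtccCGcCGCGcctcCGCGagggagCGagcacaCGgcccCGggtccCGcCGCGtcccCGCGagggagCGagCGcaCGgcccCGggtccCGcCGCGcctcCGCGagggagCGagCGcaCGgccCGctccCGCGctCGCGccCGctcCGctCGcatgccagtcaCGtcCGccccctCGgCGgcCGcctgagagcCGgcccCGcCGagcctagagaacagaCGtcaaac
Smyd1, chr6:71262232-71262531, minus strand: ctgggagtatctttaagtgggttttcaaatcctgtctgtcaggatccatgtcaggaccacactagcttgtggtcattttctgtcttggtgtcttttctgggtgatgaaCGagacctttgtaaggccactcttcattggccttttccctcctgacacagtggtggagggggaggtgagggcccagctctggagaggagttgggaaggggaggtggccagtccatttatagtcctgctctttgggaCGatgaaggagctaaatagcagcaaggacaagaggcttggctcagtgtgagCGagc

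The distal Dnmt3a window holds 46 CpGs and the internal one 18, although both are rich in G and C (82.3% and 74.0%). Tet2 has 57, the most of any member, whereas Tet1 has 17 and Smyd1 only 3. Of the 23 members with a RefSeq window, counting for each the start closest to its feature, 73.9% hold at least 20 CpGs (the letters CG, which read the same on both strands), beside 53.3% of 1923 listed genes treated the same way and 36.1% of 17492 protein-coding genes by their first listed window. Members higher and lower in siH19 had medians of 24 and 25 CpGs in 13 and 10 windows, so the medians of the 2 directions lay close together. The windows of 4 members lie far from the 5′ end of their feature, at 5340 bp for Smarcd2 (4 CpGs), 6293 bp for Setd7, 7195 bp for Tet1 and 37602 bp for Setd6, whose feature starts at Ndrg4. The last 3 are among the 13 higher members. For Setd1b, Kdm6b, Chd3 and Arid4a no window was used.

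**Figure D3:**
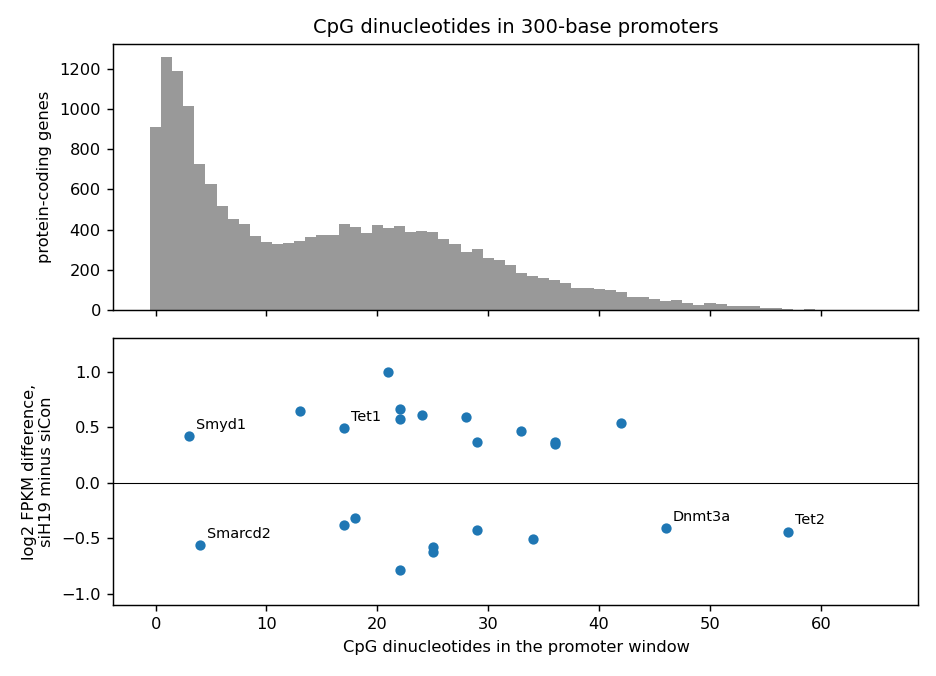
Number of CpG dinucleotides in 300-base windows around the start of transcription (x axis) for 17492 protein-coding genes (top, genes per CpG count) and for 23 members against their log2 FPKM difference (bottom, 1 point per gene). Points above and below 0 overlap along the x axis, the former from 3 CpGs for Smyd1 to 42 for Arid1b and the latter from 4 for Smarcd2 to 57 for Tet2.

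Among the enzymes that methylate DNA, Dnmt3a, which sets new methylation patterns, was the listed one. Its level was low, at 3.94 FPKM in siCon and 2.97 in siH19, or 1.98 and 1.57 as log2 FPKM. The difference of -0.41 left 75.3% of the control level, at the 18.7 percentile of absolute differences among listed features with a symbol. The feature spans chromosome 12 from 3806562 to 3914444 and so contains both starts printed above. Its exons share 133 bp with Dnmt3aos on the opposite strand. Dnmt1, which maintains methylation at replication, and Dnmt3b, the second de novo enzyme, were not listed, nor were Dnmt3l and Dnmt3c.

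The TET enzymes, which oxidize methylated cytosine, pointed in opposite directions. For Tet2, log2 FPKM was 2.89 with siCon and 2.45 with siH19, a difference of -0.44, or 73.7% of control. Tet1 had -0.73 and -0.24, a difference of 0.49 at a level below 1 FPKM in both groups (0.603 and 0.847 FPKM). On a log2(FPKM + 1) scale, which damps changes of scarce transcripts, the Tet1 difference shrinks to 0.20 while that of Tet2 stays at -0.38. The Tet1 feature (chromosome 10, 62804570 to 62880129, minus strand) ends 28867 bp short of the most distal annotated start of the gene, and it does not reach the start whose window is printed above. Tet3 was not listed.

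The MBD proteins also diverged. Mbd3, a structural subunit of the NuRD complex that has itself little affinity for methylated CpG, was at 4.69 and 5.26 on the log2 FPKM scale (25.8 and 38.3 FPKM). Its difference of 0.57 falls just under 1.5-fold (1.48-fold). Mbd4, a DNA glycosylase that removes thymine mispaired with guanine at CpG sites, went from 1.39 to 0.77 in log2 FPKM, a difference of -0.62, or 65.1% of control. Mbd4 was 1 of the 2 members lower by at least 1.5-fold. On the log2(FPKM + 1) scale its difference is -0.42, which falls short of 1.5-fold. Mbd1, Mbd2, Mbd5 and Mbd6 were not listed. Over the DNA methyltransferase, TET and MBD genes together, 2 of 5 listed genes were higher and 3 lower, with a median difference of -0.41 against 0.41 for all listed features with a symbol. With 5 genes and no test, nothing particular to this group is read from that contrast.

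Partners of these enzymes and the enzymes that supply methyl groups were looked up as whole lists. Of 22 partners of the DNA methylation machinery, 4 were listed (18.2%, beside 11.1% of protein-coding symbols). Of these 4, 3 were higher and 1 lower, beside 60.1% higher among all listed features with a symbol. Zbtb33, which encodes Kaiso, a zinc finger reader of methylated DNA, had a difference of 1.23. Gadd45a, a stress gene linked to demethylation, had 0.67, and Zfp57, a guardian of imprinted methylation, had 0.44. Tdg, the glycosylase that excises the oxidation products made by TET enzymes, was lower, from a log2 FPKM of 4.90 to 4.42, a difference of -0.48. Of 26 genes of the methionine and folate cycles, among them Ahcy, which encodes S-adenosylhomocysteine hydrolase, Mat2a and Mtr, none was listed, so no value is available for any of them, and the same 11.1% applies beside that count.

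Histone lysine methyltransferases and their relatives formed the class with the widest range of differences, with 6 of 8 listed features higher (75.0%, beside 60.1% of all listed features with a symbol), 1 of them the joint Ndrg4 and Setd6 feature. After centring, 5 are higher and 3 lower. Setd1b, a catalytic subunit of a COMPASS complex that methylates histone H3 at active promoters, showed the largest increase of all members. It went from a log2 FPKM of -0.32 to 0.78 (0.801 to 1.72 FPKM), a 2.14-fold difference, and on the log2(FPKM + 1) scale its difference is 0.59 rather than 1.10. Setd7, which methylates histone H3 and several other proteins, doubled at a far higher level, from 4.31 to 5.31 (19.8 to 39.7 FPKM). Its value was little affected by that change of scale (0.96). The Setd7 feature begins 6237 bp upstream of the annotated gene.

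Smyd5, a SET and MYND domain methyltransferase, had 2.80 and 3.45, a difference of 0.65. Smyd1, the family member restricted to heart and skeletal muscle, where it also helps myosin to fold and assemble, was abundant in both groups. It went from 5.01 to 5.43, a difference of 0.42. Mll1 (now Kmt2a), another COMPASS methyltransferase, had 1.75 and 2.12, a difference of 0.37. Setd6 cannot be read by itself, because its feature joins it with Ndrg4, the neighbouring gene on the same strand. The joint feature spans 40778 bp, of which the Setd6 gene covers 3130 bp, and its log2 FPKM of 6.79 and 7.38 (111 and 167 FPKM) is the highest of all members.

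Lower levels were found for Suv420h2 and Smyd4. Suv420h2 (now Kmt5c), which methylates histone H4 in constitutive heterochromatin, had the largest decrease of all members. It went from 2.19 to 1.40 in log2 FPKM, a difference of -0.79, or 57.8% of control. Smyd4 had 3.06 and 2.55, a difference of -0.51. Neither Ezh1 nor Ezh2, the catalytic subunits of PRC2, was listed.

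Of the demethylases, 3 of 19 annotated genes of the class were listed (15.8%, beside 11.1% of protein-coding symbols). Kdm6b, which removes the repressive methyl marks placed by PRC2, went from 1.36 to 2.31 in log2 FPKM (2.57 to 4.96 FPKM), a 1.93-fold difference. Its feature starts 6631 bp upstream of the annotated gene, and its exons share 286 bp with Kdm6bos on the opposite strand. Kdm1a, also known as LSD1, which demethylates histone H3 within repressor complexes, was among the most abundant members at 5.43 and 5.80, with a difference of 0.37. Kdm5b, which erases methylation at active promoters, was lower, at 4.00 and 3.62, a difference of -0.38. Centring leaves 1 of these 3 genes, Kdm6b, above 0.

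Hdac5, a class IIa deacetylase that binds and represses MEF2 factors in muscle, was the listed deacetylase. It had 5.05 and 4.73, a difference of -0.32, the smallest of all members, at the 0.628 percentile of absolute differences.

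Phf1, a PRC2 subunit with a Tudor domain that reads methylated histone H3, had 2.45 and 3.06, a difference of 0.61. Exons of Phf1 and of Cuta, on the opposite strand, share 1370 bp of the 3486 bp of Phf1 exons, and whether the assembly kept the strands apart is not given in the sources used here.

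The 9 listed remodellers and ARID genes were divided between the directions, with 5 higher (55.6%, beside 60.1% of all listed features with a symbol) and 4 lower. After centring, 3 are higher and 6 lower. Arid1a and Arid1b, the alternative DNA-binding subunits of the canonical BAF complex, were both higher, by 0.35 (2.61 to 2.96) and 0.54 (2.67 to 3.21). Smarcc1, a scaffold subunit, was higher by 0.47 (4.36 to 4.83). By contrast, Smarca2, 1 of the alternative ATPases that drive BAF, was lower by 0.43 (2.87 to 2.44), and Smarcd2, an accessory subunit, by 0.56 (4.33 to 3.77). Smarca4, the other ATPase, was not listed. Chd3, an ATPase of NuRD, had 5.59 and 5.96, a difference of 0.37. Arid5a, which encodes an RNA-binding protein with an ARID domain, was higher by 0.66 (2.30 to 2.96). Arid4a, a partner of the retinoblastoma protein, was lower by 0.36 (2.83 to 2.47), and Arid3b by 0.58 at a level below 1 FPKM in both groups (0.966 and 0.646 FPKM). On the log2(FPKM + 1) scale the Arid3b difference is -0.26.

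Members and their partners were then set side by side by complex, using whole subunit lists. Of 95 symbols of PRC1, PRC2, NuRD, COMPASS and BAF, some of them older names of the same gene, 22 were listed (23.2%, beside 11.1% of protein-coding symbols), 10 of them members, which were listed by definition, and 12 partners. Of the 22, 20 were higher and 2 lower, with a median difference of 0.47, beside 60.1% higher and a median of 0.41 among all listed features with a symbol. After centring on 0.41, 14 are above 0 and 7 below, and Dpf2 lies at 0. PRC2 was represented by Aebp2 (0.75), Phf1 (0.61) and Mtf2 (0.38), all accessory subunits, and PRC1 by Pcgf3 and Pcgf5 (0.90 each), which specify variant forms of the complex, and the ubiquitin ligase Rnf2 (0.46). NuRD showed Gatad2b (0.71), Mbd3 (0.57), Gatad2a (0.47) and Chd3 (0.37). In COMPASS, Setd1b and Mll1 were accompanied by Ncoa6 (0.45) and Paxip1 (0.40). All 14 listed genes of these 4 complexes were higher, whereas BAF had 6 of 8 listed genes higher and 2 lower. Centring puts Mll1, Chd3, Mtf2, Paxip1 and Arid1a below 0 as well. Within BAF, the largest increase was that of Ss18 (1.00), from a log2 FPKM of 3.39 to 4.39. The other subunits have no value here, so no change of a whole complex can be read from these genes.

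**Figure D4:**
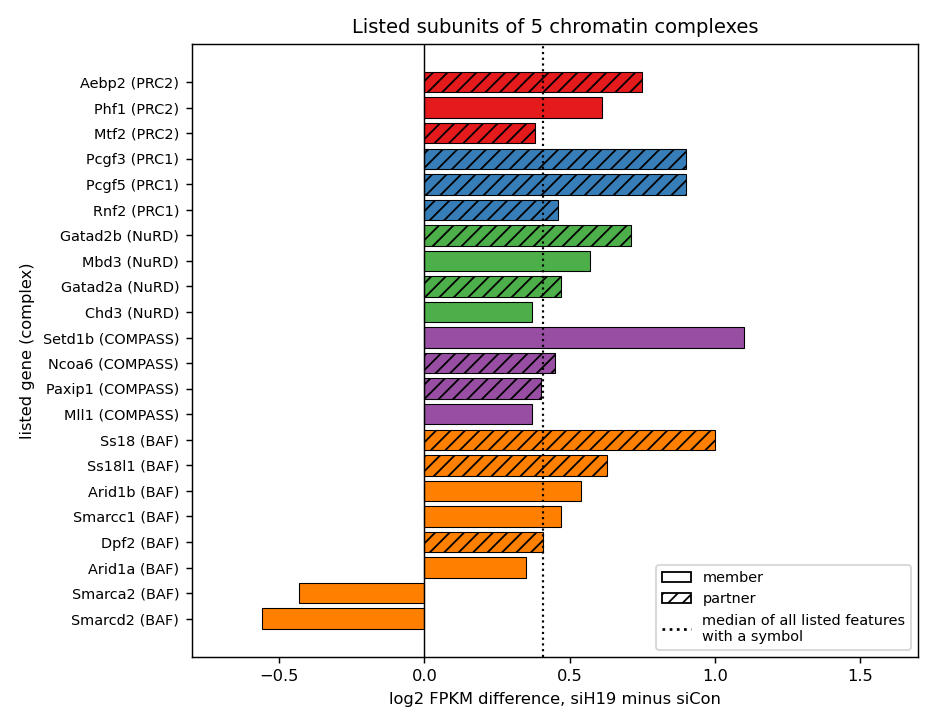
Log2 FPKM difference (siH19 minus siCon, x axis) of every listed subunit of 5 chromatin complexes, with 1 bar per gene starting at 0. Plain bars are members and hatched bars partners from the subunit lists, the dotted line is the median of all listed features with a symbol (0.41), and the bars below 0 are Smarca2 and Smarcd2 of BAF.

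Levels and lengths were also set against the directions. The median log2 FPKM in siCon was 2.80 for the 17 higher and 2.87 for the 11 lower members, against 3.30 for all listed features with a symbol, and the median feature lengths were 48342 bp and 57626 bp. Markers of cell types were looked up as well. Of 12 muscle markers, 8 were listed (66.7%, beside 11.1% of protein-coding symbols). Of these 8, 7 were higher, beside 60.1% of all listed features with a symbol and with no test. Among them were Myog, the transcription factor of terminal differentiation, at 1.43, and Mef2c at 0.84, while Myf5, a marker of precursors, was lower at -0.38. The 7 include Myh3 and Myh8, which share 1 joint feature of 5 symbols and hence 1 value. None of 10 markers of cycling cells was listed, and 1 of 7 fibroblast markers (Col1a1, 0.41) and 1 of 6 adipocyte markers (Cd36, 1.45) were. The same 11.1% applies beside these counts, which are too small to be set apart from it. Whether the chromatin genes moved with the state of differentiation was not tested.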

How the data were processed

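Total RNA of 3 siCon and 3 siH19 libraries was depleted of rRNA and sequenced in pairs with a stranded kit. The authors mapped reads to mm10 with TopHat, then assembled and compared transcripts with Cufflinks and Cuffdiff 2.1.1. The submitters' processing notes name TopHat2 2.0.7 and TopHat 1.0.0, and the published methods give 1.0.0 as the version of the TopHat Alignment app. The authors deposited log2 values, 1 pooled log2 FPKM per group and feature, for the features they called. Their log2 fold change and q-value columns, which hold the outcome of their own test, were not used. The annotation is not given in the sources used here, and depth per library is unknown.

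Differences, folds and counts were computed here from the 2 pooled columns, with no filter, no pseudocount and no test, using Python 3.11.15, numpy 2.4.6, pandas 2.3.3 and matplotlib 3.10.9. The counting was tested on simulated data. Locus starts were read as 0-based, since 484 of 2328 features with 1 symbol annotated once start 1 base before the GENCODE (release M21, GRCm38) start and 65 at it, and are printed counted from 1. Suv420h2 and Mll1 were matched by RefSeq synonyms. RefSeq windows were found for 23 of 28 members. The rule for named genes took H19, the listed DNMT, TET and MBD genes, the largest increase and decrease of each other class, members past 1.5-fold, the highest and lowest member by level, and listed complex subunits. Remaining members are given too, except 1 that is counted but not reported here, and other listed genes of the partner and marker lists were named after their values were seen. Members and lists were chosen with earlier results of these data known. Alternatives were another fold, a minimum level, single-symbol features, log2(FPKM + 1), centring and a narrower list.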

Additional observations from a re-analysis of the deposited data

How the results depend on the processing

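No paired analysis was possible because the deposited values are pooled per group, and for the same reason no library could be left out. Lowering the 1.5-fold threshold to an absolute log2 difference of 0.322 gave 17 higher and 10 lower members, and 2-fold gave 2 higher and 0 lower. On the log2(FPKM + 1) scale, 5 members were higher and 1 lower by at least 1.5-fold, with a median difference of 0.33. The shares of all listed features at these other thresholds and on this scale are not given here. Nothing particular to the members is therefore read from these counts or that median. Centring on the median of listed features with a symbol moved all features by 0.41 alike, so its effect follows from its construction and is no test of the members. It gave 2 members higher and 11 lower by at least 1.5-fold (7.14% and 39.3%, beside 9.73% and 39.9% of all listed features with a symbol) and a median of -0.04, and it turned the direction of Chd3, Kdm1a and Mll1 (each -0.04) and of Arid1a (-0.06), while H19 went to -4.11. That median lies among the higher features, which are 60.1% of those listed. A minimum level, single-symbol features and the narrower list left the counts by direction and the median within 1.5 times of their main values. Unknown depth and replicate spread limit every value.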

Other observations

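Chromatin genes outside the family names above were looked up in a list of 82 genes written after the members' values had been seen. Of these, 13 were listed (15.9%, beside 11.1% of protein-coding symbols). In siH19, 9 were higher and 4 lower, with a median log2 FPKM difference of 0.59. Among all listed features with a symbol, 60.1% were higher and the median was 0.41, and no test was run. Padi2, an enzyme that converts arginine in histones to citrulline, had the largest difference, from a log2 FPKM of 2.11 to 3.42 (1.31). The lysine methyltransferases Ash1l (0.84) and Dot1l (0.59) were higher, as was Usp22, a deubiquitinase of the SAGA coactivator (0.84). Ncoa2, a nuclear receptor coactivator, was higher by 0.47. Lower genes were Prdm8 (-0.70), Hmgn3, a nucleosome-binding protein (-0.49), Ctr9, a subunit of the PAF elongation complex (-0.46), and Ruvbl1, an ATPase of several remodelling complexes (-0.45). The level of Prdm8 was low in both groups, at a log2 FPKM of -0.41 with siCon and -1.11 with siH19.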
